A study of Rattus norvegicus with 31 samples.

Results

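Cyp1a1, Cyp1a2, Cyp1b1, Tiparp and Ahrr are target genes commonly read as a sign of activity of the aryl hydrocarbon receptor (AHR). They were taken from the count table by their symbols, as 5 of the 26312 genes listed, and all 5 were among the 19904 genes that had 2 or more counts over all libraries and were tested. RNA-Seq was done on livers of 31 young adult female Wistar rats (Crl:WI) that had been gavaged daily for 28 days with the insecticides thiacloprid (THI) or clothianidin (CTD), the fungicide imazalil (IMZ) or binary mixtures, each in an aqueous carboxymethyl-cellulose vehicle. The 8 control rats received the vehicle only. THI was given to 4 rats at 108 mg/kg bw/day, IMZ to 4 rats at 93 mg/kg bw/day and CTD to 3 rats at 288 mg/kg bw/day. CTD rats were survivors, since this dose group had lost at least 1 animal in moribund condition. The mixtures, with 4 rats each, were THI + IMZ (54 and 46 mg/kg bw/day), THI + CTD (54 and 134 mg/kg bw/day) and IMZ + CTD (46 and 135 mg/kg bw/day). Each rat was an independent biological replicate.

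The AHR is a ligand-activated transcription factor that waits in the cytosol in a complex with HSP90 and the co-chaperone encoded by Ptges3. With a ligand bound it enters the nucleus, pairs with ARNT and binds DNA at xenobiotic response elements with the core GCGTG, which switches on genes of drug metabolism. In liver, Cyp1a1 is known as a gene with a low basal level and a wide response, while Cyp1a2, which metabolizes caffeine and aromatic amines, is expressed constitutively in hepatocytes. Cyp1b1 is a related cytochrome P450 that is better known outside hepatocytes. Tiparp encodes a mono-ADP-ribosyltransferase and Ahrr encodes a repressor, and both feed back on the receptor.

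The upstream sequences are shown because the members differ in whether they carry this core next to their start. RefSeq (GRCr8) gave promoters for 4 of the 5 members, all but Cyp1a1, and the 250 bases before each start were searched for GCGTG on both strands, so that the reverse strand reads CACGC. No match overlapped another. Matches are in capitals, all sequences run 5′ to 3′ on the strand of the gene, and the windows are chr8:66978150-66978399 on the minus strand for Cyp1a2, chr2:152063519-152063768 on the plus strand for Tiparp and chr1:30821969-30822218 on the plus strand for Ahrr.
Cyp1a2: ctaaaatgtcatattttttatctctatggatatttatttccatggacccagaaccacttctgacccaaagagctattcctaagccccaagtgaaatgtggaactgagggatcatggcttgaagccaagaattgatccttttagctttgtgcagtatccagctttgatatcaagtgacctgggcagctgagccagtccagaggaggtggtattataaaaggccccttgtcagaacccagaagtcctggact
Tiparp: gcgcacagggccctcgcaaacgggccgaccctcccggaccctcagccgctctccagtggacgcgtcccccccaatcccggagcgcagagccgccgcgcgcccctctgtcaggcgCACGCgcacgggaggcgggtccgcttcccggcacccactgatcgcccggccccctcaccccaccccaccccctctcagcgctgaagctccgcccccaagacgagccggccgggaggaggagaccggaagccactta
Ahrr: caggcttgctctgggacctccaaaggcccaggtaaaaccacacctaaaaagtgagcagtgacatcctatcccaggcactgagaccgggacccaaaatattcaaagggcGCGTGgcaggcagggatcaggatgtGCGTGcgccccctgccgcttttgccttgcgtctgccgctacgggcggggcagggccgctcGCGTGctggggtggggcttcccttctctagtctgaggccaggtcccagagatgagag
Ahrr held 3 matches, Cyp1b1 held 2, which begin 81 and 20 bases before its start, Tiparp held 1, which begins 136 bases before its start, and Cyp1a2 held 0. Of all 33469 rat promoters in the table, 25.9% held at least 1 match in a window of this length and 2.58% held 3 or more. A match is a run of letters and not a measured binding site. Elements farther upstream were not searched. In the same annotation Cyp1a1 is the next gene to Cyp1a2, with 0 genes starting between them.

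The libraries held 31.8 M to 101 M counts each, and more in the controls, with a median of 60.5 M against 40.2 M in the 23 treated rats. All 9 hepatocyte markers (albumin and transferrin among them) were present in every group. Their summed level was 196942 to 260351 CPM in the controls and 170576 to 261428 CPM in the treated rats. Here CPM stands for counts per 1 M of the TMM-scaled library. Differences from control were tested in edgeR (quasi-likelihood F-test, 1 model for all 31 rats), and adjusted p is the Benjamini-Hochberg value over all 19904 genes, with 0.05 as the threshold. The 6 comparisons share the same 8 controls. Of the 9 hepatocyte markers, 1 was lower in CTD, 1 higher in THI + IMZ and 1 lower in THI + CTD. Over all genes 12.7%, 1.18% and 4.39% passed there. In THI, IMZ and IMZ + CTD 0 passed, against 0.543%, 0.251% and 1.46%. In IMZ 6 of 9 had an unadjusted p under 0.05 by edgeR, against 8.08% of all genes. In THI, CTD, THI + IMZ, THI + CTD and IMZ + CTD 2, 1, 3, 5 and 4 had, against 8.68%, 25.2%, 11.1%, 17.6% and 12.8%. In whole liver, fewer cells that express a gene and less RNA per cell cannot be told apart.

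Cyp1a1 (ENSRNOG00000019500) was the member with the largest differences from control. It rose in IMZ and CTD, and no other member passed the threshold in any of the 6 treatments. In the 8 controls its level ran from 0.268 to 7.81 CPM with a median of 2.15 CPM. The THI rats had 10.2, 39.0, 16.2 and 7.57 CPM. The 4 rats on IMZ had 10.4, 77.6, 34.8 and 7.72 CPM. The 3 rats on CTD had 44.4, 9.28 and 27.4 CPM. All rats on CTD thus lay above the highest control, as was the case for 5.33% of all genes tested, while THI and IMZ each had 1 rat just inside the control range. In the mixtures, the THI + IMZ rats had 8.90, 11.6, 19.1 and 1.25 CPM, the THI + CTD rats 11.03, 16.5, 9.82 and 9.67 CPM and the IMZ + CTD rats 4.55, 6.33, 4.35 and 2.63 CPM. The THI + CTD rats were all above the controls (2.14% of all genes), 3 of 4 THI + IMZ rats were, and the 4 IMZ + CTD rats were all within the control range.

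**Figure D1:**
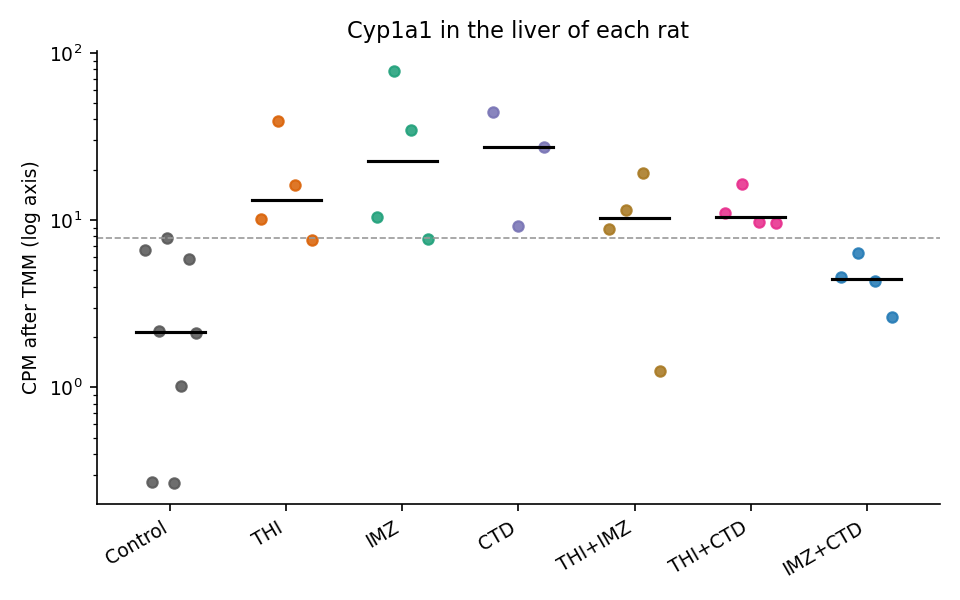
Cyp1a1 level of each of the 31 rats (CPM after TMM, log axis) by group. Points are rats, black lines are group medians and the dashed line is the highest control (7.81 CPM), above which lie all CTD and THI + CTD rats and none of the IMZ + CTD rats.

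On the log2 scale Cyp1a1 was higher than in controls by 3.28 (SE 0.63, 9.69-fold) in IMZ, with an adjusted p of 0.00909 by edgeR, and by 3.01 (SE 0.67, 8.04-fold) in CTD, with an adjusted p of 0.00233. The call in IMZ was lost without IMZ replicate 2, the rat with 77.6 CPM, where the log2 difference was 2.39 and the adjusted p 0.137. The call in CTD held when any 1 of the 11 rats compared was left out, with a highest adjusted p of 0.0442 (edgeR). In THI the log2 difference was 2.45 (SE 0.63) with an adjusted p of 0.0794 by edgeR, and the value depended on single rats. It passed in 1 of 12 fits with a rat left out, that without Control replicate 4, the highest control (adjusted p = 0.0409). Over these fits it ran from 1.74 to 2.75 with adjusted p-values by edgeR of up to 0.53, and the lowest value and highest p were those without THI replicate 2, the rat with 39.0 CPM. THI + IMZ gave 1.60 (SE 0.65, adjusted p = 0.32), THI + CTD 1.81 (SE 0.64, adjusted p = 0.109) and IMZ + CTD 0.41 (SE 0.69, adjusted p = 0.832) in the same edgeR fit. The interval for IMZ + CTD, from -1.0 to 1.83, holds a rise of up to 3.56-fold.

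As a count over the members, 1 of 5 passed in IMZ, where 0.251% of all genes did, and 1 of 5 in CTD, where 12.7% did. In the edgeR fit 0 of 5 passed in THI, THI + IMZ, THI + CTD and IMZ + CTD, against 0.543%, 1.18%, 4.39% and 1.46% of all genes. At an unadjusted p under 0.05 the numbers were 2 of 5 in each of THI, IMZ, CTD, THI + IMZ and THI + CTD and 1 of 5 in IMZ + CTD, against 8.68%, 8.08%, 25.2%, 11.1%, 17.6% and 12.8% of all genes. The Wald test of DESeq2 called 0, 1, 1, 0, 1 and 0 members in THI, IMZ, CTD, THI + IMZ, THI + CTD and IMZ + CTD. Of all 19903 genes it tested, it called 199, 150, 3007, 435, 1386 and 567 in this order, more than edgeR did. The median log2 difference of the 5 members was 0.22, 0.47, 0.32, 0.22, 0.15 and 0.30 in the same order, beside -0.01, -0.02, -0.07, -0.02, -0.03 and -0.03 over all genes.

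Ordered by its mean, Cyp1a1 went from 3.28 ± 3.04 CPM (SD, n = 8) in controls over IMZ + CTD (4.47 ± 1.51, n = 4), THI + IMZ (10.2 ± 7.37, n = 4), THI + CTD (11.7 ± 3.20, n = 4), THI (18.2 ± 14.3, n = 4) and CTD (27.02 ± 17.6, n = 3) to IMZ (32.6 ± 32.4, n = 4). None of the 6 steps between neighbours in this order was larger than the larger of their SDs. The spread was wide in the controls themselves, where the highest rat had 29.1 times the level of the lowest. Of 1102 genes within 0.5 log2 CPM of its mean level, 1 had a larger SD of log2 CPM among the controls than Cyp1a1 (1.87, against a median of 0.29 for these genes). The narrowest groups were THI + CTD and IMZ + CTD, with an SD of 0.36 and 0.52 log2 CPM.

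Cyp1a2 (ENSRNOG00000016173) is the abundant member. It ran from 1040 to 2069 CPM in the controls, with a median of 1327 CPM. THI rats had 1357, 1950, 2207 and 1336 CPM. IMZ rats had 1758, 2250, 2353 and 1763 CPM, so that 2 of them exceeded every control. CTD rats had 1946, 1665 and 1865 CPM. THI + IMZ rats had 1598, 2161, 2146 and 921 CPM, and the last of these, replicate 4, was also the lowest of the treated rats for Cyp1a1. THI + CTD rats had 1752, 1416, 1711 and 1607 CPM and IMZ + CTD rats had 1412, 1557, 1719 and 1449 CPM, all inside the control range.

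Every treatment mean of Cyp1a2 was above that of control, from 1.05 times in IMZ + CTD to 1.39 times in IMZ, and 0 of 6 differences passed the threshold in edgeR. The largest was a log2 difference of 0.47 (SE 0.18) in IMZ, with an unadjusted p of 0.0133 and an adjusted p of 0.431. The others ranged from 0.07 (SE 0.18, adjusted p = 0.919) in IMZ + CTD to 0.32 (SE 0.20, adjusted p = 0.342) in CTD by edgeR. By mean, control was lowest (1466 ± 376 CPM, SD, n = 8), IMZ + CTD next (1534 ± 138, n = 4) and IMZ highest (2031 ± 315, n = 4), and again 0 of the 6 neighbours in the order differed by more than the larger SD. The sum of 8 pericentral hepatocyte markers, none of them at 0 over a whole group, was 4931 to 7625 CPM in controls. All rats of IMZ (3455 to 4266 CPM) and THI + CTD (3983 to 4618 CPM) lay below that range. It was 3862 to 4996 CPM in THI, 3940 to 5998 CPM in CTD, 4315 to 5557 CPM in THI + IMZ and 4352 to 6264 CPM in IMZ + CTD. Most of this sum was Cyp2e1, with 5199540 counts over all libraries, followed by Oat (1102263) and Glul (567619). Of the 8 markers, 1 was lower in THI, 1 higher in CTD, and 1 lower and 1 higher in THI + CTD by edgeR. Over all genes 0.543%, 12.7% and 4.39% passed in these treatments. In IMZ, THI + IMZ and IMZ + CTD 0 passed, against 0.251%, 1.18% and 1.46% of all genes. There 3, 4 and 1 of the markers had an unadjusted p under 0.05 by edgeR, against 8.08%, 11.1% and 12.8%. Their part in the values of Cyp1a1 and Cyp1a2, which are themselves stronger around the central vein, was not tested.

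Tiparp (ENSRNOG00000011238) moved within a narrow range. Controls had 11.7 to 17.04 CPM with a median of 13.5 CPM. THI rats had 15.4, 21.1, 15.5 and 20.0 CPM. IMZ rats had 13.3, 11.6, 12.9 and 12.6 CPM, all below the control median and 1 of them below every control. CTD rats had 15.5, 20.2 and 15.2 CPM. THI + IMZ rats had 21.5, 21.3, 13.1 and 12.7 CPM, with 2 rats above every control and 2 below the control median. THI + CTD rats had 17.5, 16.4, 16.5 and 21.8 CPM and IMZ + CTD rats had 16.7, 17.2, 14.9 and 18.9 CPM, and in each mixture 2 of 4 exceeded every control.

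In edgeR the log2 difference of Tiparp from control was 0.39 (SE 0.13, adjusted p = 0.272) in THI and 0.39 (SE 0.13, adjusted p = 0.078) in THI + CTD. THI + CTD was near the threshold: the adjusted p was 0.0466 with the Wald test of DESeq2, 0.0329 with only the groups compared in the edgeR fit, and 0.0416 without Control replicate 2, the highest control. With a rat left out it reached 0.317 (edgeR), without THI + CTD replicate 4. CTD, THI + IMZ and IMZ + CTD gave 0.30 (SE 0.14), 0.31 (SE 0.13) and 0.30 (SE 0.13), with adjusted p-values of 0.183, 0.328 and 0.321 in edgeR. IMZ, in which Cyp1a1 had its highest mean, was the treatment in which Tiparp was not above control, with a log2 difference of -0.13 (SE 0.13, adjusted p = 0.815 by edgeR). By mean the order was IMZ (12.6 ± 0.72 CPM, SD, n = 4), control (13.8 ± 1.62, n = 8), IMZ + CTD (16.93 ± 1.64, n = 4), CTD (16.93 ± 2.82, n = 3), THI + IMZ (17.1 ± 4.89, n = 4), THI (18.01 ± 2.94, n = 4) and THI + CTD (18.06 ± 2.57, n = 4). The step from control to IMZ + CTD was the 1 step larger than both SDs, and the ranges of these groups overlapped.

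**Figure D2:**
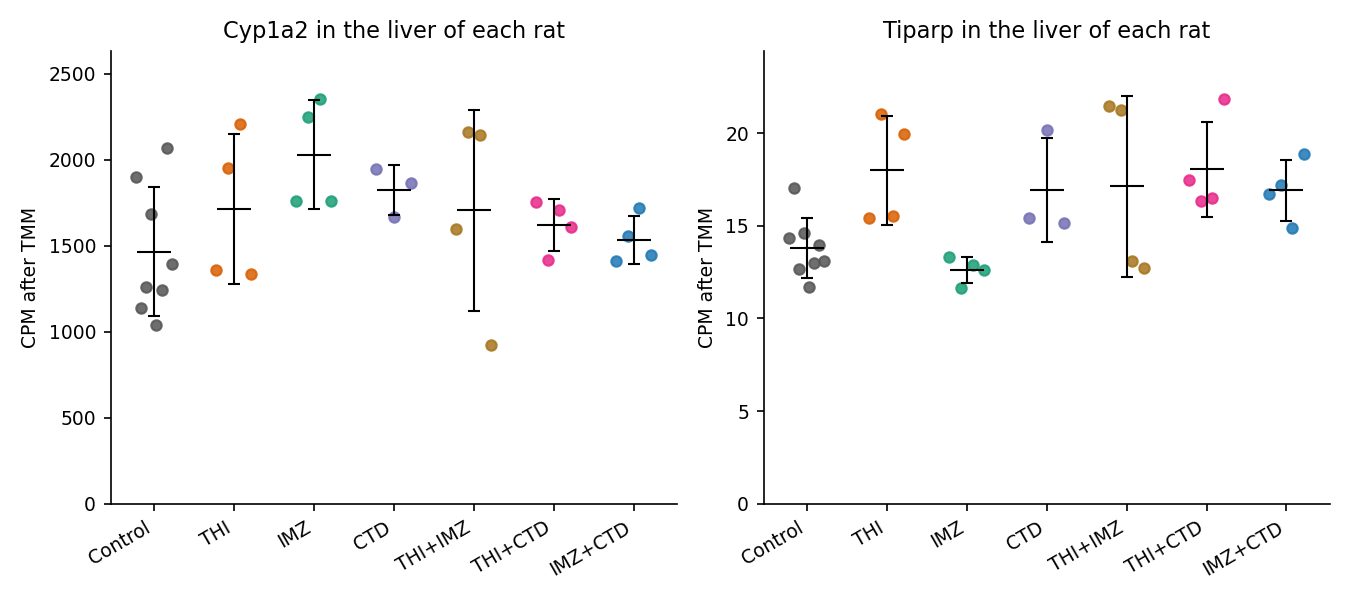
Cyp1a2 (left) and Tiparp (right) in each rat, in CPM after TMM on axes that start at 0. Points are rats, and black bars are group means with the SD. Every treated group overlaps the controls in Cyp1a2, and the 4 IMZ rats have Tiparp levels from 11.6 to 13.3 CPM, below every THI rat.

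Cyp1b1 (ENSRNOG00000040287) and Ahrr (ENSRNOG00000014721) were close to the limit of detection. Cyp1b1 had 0 to 12 counts in the controls with a median of 3.5. It had 0, 0, 2 and 0 counts in THI, 3, 1, 0 and 0 in IMZ, 4, 0 and 0 in CTD, 2, 4, 2 and 2 in THI + IMZ, 1, 5, 2 and 0 in THI + CTD and 0, 1, 8 and 3 in IMZ + CTD. Libraries with 0 counts numbered 11 of 31, and 8 libraries had more than 3 counts, of which 4 were controls. By counting error alone, the upper bound at 95% confidence for a count of 0 is about 3 counts, which is 0.0289 to 0.0963 CPM in these libraries. Ahrr had 0 to 8 counts in the controls with a median of 0.5. It had 1, 1, 0 and 0 counts in THI, 6, 5, 0 and 0 in IMZ, 1, 13 and 0 in CTD, 1, 0, 0 and 1 in THI + IMZ, 2, 0, 0 and 3 in THI + CTD and 1, 3, 0 and 2 in IMZ + CTD. It was at 0 counts in 14 of 31 libraries and above 3 counts in 5.

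The CTD rat with 13 counts of Ahrr, replicate 2, was the CTD rat with the lowest Cyp1a1 and the highest Tiparp. Against control the adjusted p-values of edgeR were 0.587 to 0.989 for Cyp1b1 and 0.379 to 0.956 for Ahrr, and a difference was not detectable at this depth. DESeq2 gave both genes no adjusted p in 5 of the 6 comparisons with control, and fold changes are left out since they rest on a few counts.

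**Figure D3:**
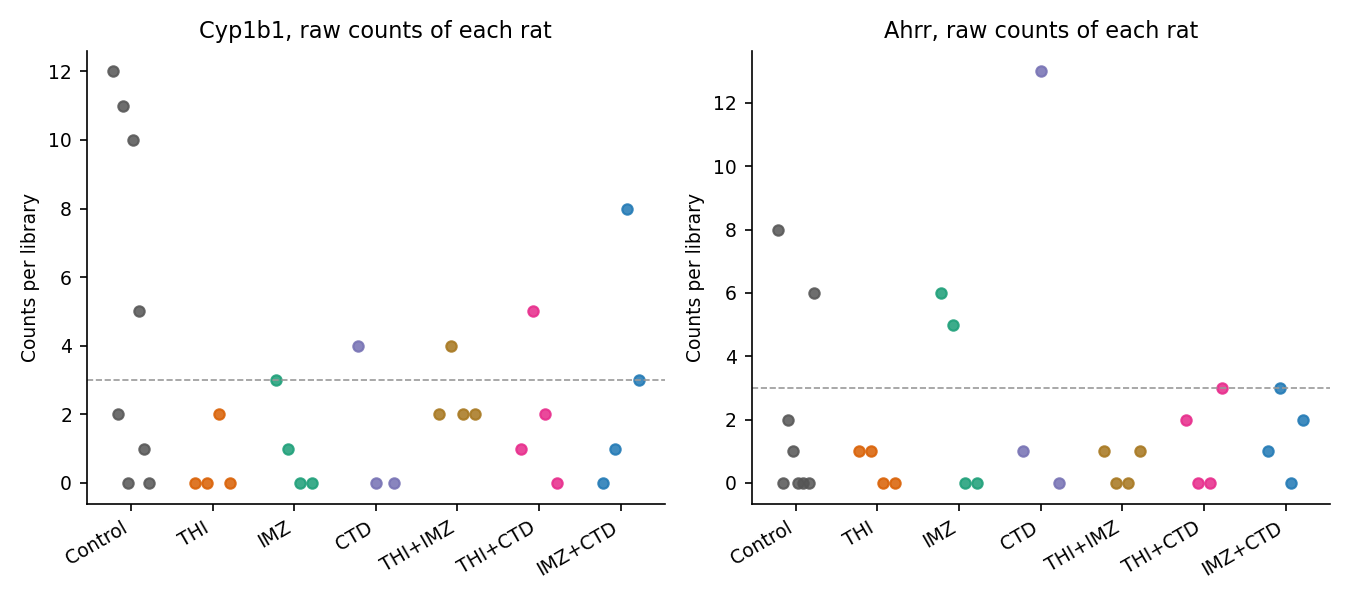
Raw counts of Cyp1b1 (left) and Ahrr (right) in each library. Points are rats and the dashed line marks 3 counts, about the upper bound at 95% confidence for a count of 0. Above this line lie 8 libraries for Cyp1b1 and 5 for Ahrr.

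Compounds were also set against each other, at doses that differ in mg/kg. In the 3 pairs of compounds tested, 0 of 5 members passed the threshold in edgeR, where 6.62% (CTD against THI), 4.67% (CTD against IMZ) and 0.01% (THI against IMZ) of all genes did. In the 3 pairs of mixtures 0 of 5 passed as well, where 0.176% (THI + CTD against IMZ + CTD), 0.171% (THI + IMZ against THI + CTD) and 0.0653% (THI + IMZ against IMZ + CTD) of all genes did. Without adjustment, 1 member had a p under 0.05 in each of the 3 pairs of compounds, Ahrr for CTD against THI (19.3% of all genes) and Tiparp for CTD against IMZ (17.9%) and THI against IMZ (5.15%), and 0 in the pairs of mixtures (10.4%, 10.1% and 8.97%). DESeq2 called 0 in all 6 pairs, against 1796, 1461, 12, 191, 227 and 78 of 19903 genes in this order. THI and CTD are both neonicotinoids and IMZ is an imidazole. Cyp1a1 differed between the neonicotinoids by a log2 value of 0.56, higher in CTD, with an interval from -1.06 to 2.18, which reaches 4.52-fold. CTD and IMZ differed by -0.27 (interval -1.90 to 1.36) and THI and IMZ by -0.83 (interval -2.34 to 0.68). For Tiparp, CTD and THI differed by -0.09 (interval -0.42 to 0.24). Both stood above IMZ in every rat, as was so for 1.51% of all genes with THI and 6.29% with CTD. THI was higher by 0.51 (interval 0.21 to 0.82, unadjusted p = 0.00169, adjusted p = 0.622 by edgeR) and CTD by 0.42 (interval 0.10 to 0.75, unadjusted p = 0.0129, adjusted p = 0.134). Cyp1a2 differed by 0.09 between CTD and THI, -0.15 between CTD and IMZ and -0.25 between THI and IMZ, and all 3 intervals include 0.

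Of the mixtures that contain CTD, THI + CTD had the higher Cyp1a1 in every rat compared with IMZ + CTD (2.7% of all genes), by a log2 difference of 1.39 (SE 0.79, interval -0.22 to 3.01, adjusted p = 0.548 by edgeR). With only these 2 groups in the edgeR fit, which then takes the spread from these 8 rats alone, the same difference had an SE of 0.23 and an adjusted p of 0.0185.

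Cyp1a1 in the mixtures was also compared with a dose-weighted sum of the log2 values of the compounds given alone. This sum is 0.5 times the value of THI or IMZ plus 0.47 times that of CTD (0.5 and 0.5 for THI + IMZ). It rests on 1 dose of each compound and is not a dose-response test of dose addition. The observed value was below this sum in each mixture. THI + IMZ reached 1.60 where the sum was 2.86, a difference of -1.27 (SE 0.68, adjusted p = 0.818 by edgeR). THI + CTD reached 1.81 where the sum was 2.64, a difference of -0.83 (SE 0.68, adjusted p = 0.739). IMZ + CTD reached 0.41 where the sum was 3.05, a difference of -2.64 (SE 0.76) with an unadjusted p of 0.00155 and an adjusted p of 0.0741 in edgeR. The last passed with the Wald test of DESeq2 (adjusted p = 0.0151), and the range over all 28 alternatives was 0.0151 to 0.217. In these 3 contrasts 0 of 5 members passed, against 0.0151%, 0.286% and 1.16% of all genes, and at an unadjusted p under 0.05 it was 0, 0 and 1 member, against 6.46%, 9.66% and 14.3%. DESeq2 called 0, 0 and 1, against 54, 174 and 603 of 19903 genes.

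The IMZ + CTD livers also differed from controls in clock genes and their targets. Of 11 measured, 4 were lower and 0 higher, where 1.46% of all genes passed in either direction. The median log2 difference of the 11 was -0.83. Their summed level was 89.4 to 109 CPM against 141 to 174 CPM in controls, with none at 0 over a whole group. In THI, CTD and THI + IMZ 1 of 11 was lower and 0 higher in each, where 0.543%, 12.7% and 1.18% of all genes passed. The sums there were 108 to 182, 97.7 to 186 and 98.1 to 168 CPM. In IMZ and THI + CTD 0 of 11 passed, against 0.251% and 4.39%. The part of the clock genes in the Cyp1a1 value was not tested. In the Kupffer cell list 2 of 7 were lower in CTD, where 12.7% of all genes passed, and 2 of 7 in THI + CTD, where 4.39% did, with summed levels of 265 to 383 CPM and 273 to 336 CPM against 331 to 529 CPM in controls. In the list of sinusoidal endothelial cells 1 of 7 was lower in each of these treatments, with sums of 255 to 324 CPM and 272 to 328 CPM against 313 to 388 CPM. Of 10 stellate cell and fibroblast markers, 1 was higher and 1 lower in each of these treatments. Their sums were 429 to 592 CPM and 415 to 563 CPM against 306 to 511 CPM. In IMZ and THI + IMZ 1 was higher in each, where 0.251% and 1.18% of all genes passed. The part of these cells in the members' values was not tested.

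For Cyp1a2 the mixtures lay below the sum by 0.13 in THI + IMZ, 0.12 in THI + CTD and 0.32 in IMZ + CTD on the log2 scale, with adjusted p-values of edgeR from 0.456 to 0.9998. Tiparp lay above it, by 0.18, 0.06 and 0.22, with adjusted p-values from 0.464 to 0.9998. The sum for Tiparp holds the negative value of IMZ in both mixtures with that compound.

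**Figure D4:**
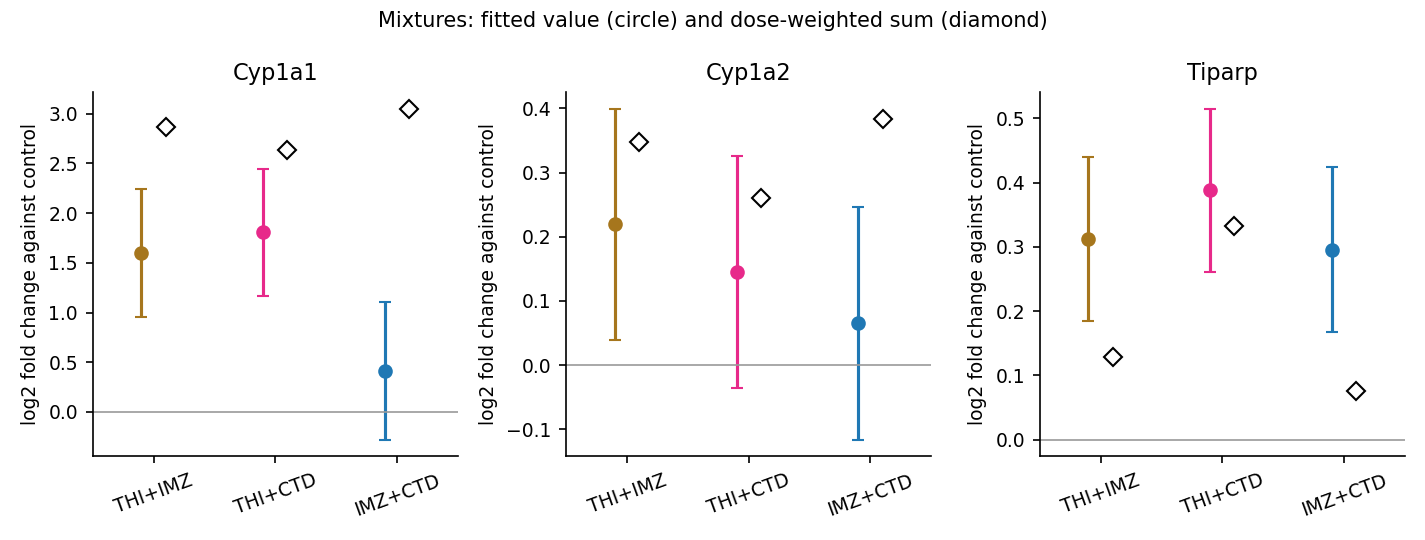
Log2 fold change against control of Cyp1a1, Cyp1a2 and Tiparp in the 3 mixtures, each panel with its own axis. Circles with bars are the fitted values with their SE and diamonds are the dose-weighted sums of the compounds given alone. The widest gap is that of Cyp1a1 in IMZ + CTD, at 0.41 against 3.05.

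Cyp1a1 and Cyp1a2 rose and fell together from rat to rat. Within the 8 controls, log2 CPM of both genes gave Pearson's r = 0.909 (exact permutation p = 0.0021, adjusted p = 0.0042) and Spearman's rho = 0.881 (exact permutation p = 0.0072, adjusted p = 0.0144). Over all 31 rats, taken as deviations from their group means, r was 0.824 and rho 0.819 (permutation p = 1e-05 for each, the smallest the resamples can give, adjusted p = 6e-05). Within the 23 treated rats r was 0.781 (permutation p = 2e-05, adjusted p = 6e-05) and rho 0.756 (permutation p = 4e-05, adjusted p = 0.00012). Without the 2 rats farthest from the median of Cyp1a1, r was 0.876, 0.806 and 0.699 in these sets. Both values of a rat come from 1 library and share its scaling. The genes are also paralogues, and the counts hold uniquely mapped reads. Counts of Cyp1a1 were from 0.0239% of those of Cyp1a2, in a control, to 3.45%, in an IMZ rat. Whether reads of Cyp1a2 were assigned to Cyp1a1 was not tested.

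**Figure D5:**
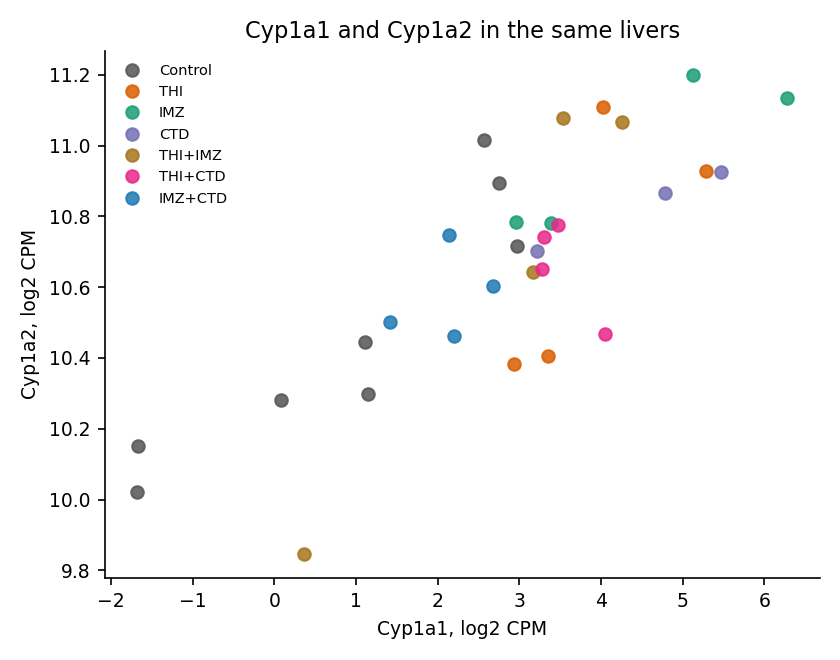
Cyp1a1 against Cyp1a2 in the same livers, both in log2 CPM with a prior count of 2, coloured by group. Each point is a rat. Controls with low Cyp1a1 also had low Cyp1a2, and the 2 quantities rise together within the controls (r = 0.909) and within the treated rats.

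Tiparp did not follow Cyp1a1. Their deviations gave r = 0.036 over all 31 rats (permutation p = 0.85, adjusted p = 0.92) and r = 0.023 in the 23 treated rats (permutation p = 0.92, adjusted p = 0.92), with rho at 0.044 (permutation p = 0.81, adjusted p = 0.87) and -0.038 (permutation p = 0.87, adjusted p = 0.87). Without the 2 rats farthest in Cyp1a1, r was 0.084 and -0.193. In the 8 controls r was 0.075 (exact permutation p = 0.89, adjusted p = 0.92) and rho 0.429 (exact permutation p = 0.3, adjusted p = 0.45), and r became 0.899 without the 2 farthest, so that this value rests on 2 rats. These are 6 relations in all, and the adjusted values cover them.

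Among 10876 genes with a symbol and a mean above 0 log2 CPM, the patterns most like each member over the 31 rats were found by Pearson's r of log2 CPM, as a description. For Cyp1a1 these were Cyp1a2 (0.81), Cyp2b2 (0.70) and Dpysl2 (0.70). For Cyp1a2 they were Cyp1a1 (0.81), NFE2L1 (0.60) and Zfat (0.54). For Tiparp they were Dnaaf2 (0.77), RGD1309492 (0.73) and Klhl22 (0.72). The values for Cyp1b1 (Mgat1, Cbx6 and Tgfbr3, 0.61 to 0.63) and Ahrr (Zfp148, Tada2a and Bbs7, 0.60 to 0.62) rest on a few counts of the member. The 31 points share the group differences, so these values mix differences between treatments with those between rats.

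The other genes of the pathway are described from lists of their known roles. Of 6 genes of the signalling machinery, 0 passed in THI, IMZ, THI + IMZ, THI + CTD or IMZ + CTD in edgeR, and 2 passed in CTD, where 12.7% of all genes did. At an unadjusted p under 0.05 these numbers were 3, 0, 3, 0 and 1, and 3 in CTD, against 8.68%, 8.08%, 11.1%, 17.6%, 12.8% and, in CTD, 25.2% of all genes. All these numbers take higher and lower genes together. In CTD, Arnt, the partner of the receptor, fell by 0.42 (SE 0.11, adjusted p = 0.0117 by edgeR), while Ptges3 rose by 0.43 (SE 0.13, adjusted p = 0.0221). The call of Arnt was lost without CTD replicate 1 and that of Ptges3 without CTD replicate 1 or 3. Ahr itself was at 70.4 CPM in controls and differed by -0.24 to 0.24 on the log2 scale across the treatments, with adjusted p-values of 0.416 or more.

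Of 10 other genes known as AHR targets, several of which also respond to other receptors, 1 passed in THI, 0 in IMZ, 1 in CTD, 2 in THI + IMZ, 1 in THI + CTD and 1 in IMZ + CTD, all of them higher than in controls, by edgeR. Over all genes the shares were 0.543%, 0.251%, 12.7%, 1.18%, 4.39% and 1.46% in this order, so that the count in CTD was near the background. Without adjustment, 6, 4, 2, 4, 3 and 2 of them had a p under 0.05 in either direction, against 8.68%, 8.08%, 25.2%, 11.1%, 17.6% and 12.8% of all genes. Slc7a5 in THI (log2 difference -0.47) and Xdh in IMZ + CTD (-0.31) were lower than in controls, and the rest were higher. Gsta2, a glutathione S-transferase whose reads may be shared with its near-identical family, rose by 0.95 (SE 0.20, adjusted p = 0.0123) in THI, 0.81 (SE 0.20, adjusted p = 0.0308) in THI + IMZ and 0.87 (SE 0.20, adjusted p = 0.0069) in THI + CTD. In THI it was 460 to 714 CPM against 184 to 374 CPM in controls. Its calls were lost without THI replicate 3, without Control replicate 5 or THI + IMZ replicates 1 or 3, and without THI + CTD replicate 2. Ugdh, which makes the UDP-glucuronic acid used in glucuronidation, rose by 0.48 (SE 0.11, adjusted p = 0.00443) in CTD and by 0.47 (SE 0.10, adjusted p = 0.0172) in THI + IMZ. The first call was lost without CTD replicate 3 and the other without THI + IMZ replicate 1. Aldh3a1, an aldehyde dehydrogenase and a classical AHR target, rose by 2.73 (SE 0.60, adjusted p = 0.0126) in IMZ + CTD, from 0 to 13 counts in controls to 4 to 23 counts, and lost its call without IMZ + CTD replicate 3. It was also higher than in controls in every other treatment, from 0.73 in THI to 2.18 in THI + IMZ. The adjusted p-values there were 0.077 to 0.757 by edgeR. IMZ + CTD is the treatment in which Cyp1a1 was closest to control. The median of the 10 genes was 0.46, 0.12, 0.23, 0.28, 0.30 and 0.26 in THI, IMZ, CTD, THI + IMZ, THI + CTD and IMZ + CTD, beside the medians of all genes given above.

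As a reference, Cyp2b1 and Cyp2b2, targets of the constitutive androstane receptor whose reads are hard to tell apart, and Cyp3a23/3a1, a target of the pregnane X receptor, rose in all 6 treatments. Cyp2b2 was higher by 5.80, 5.26, 5.36, 5.61, 5.96 and 3.65 on the log2 scale in THI, IMZ, CTD, THI + IMZ, THI + CTD and IMZ + CTD, and was lowest in the mixture with the lowest Cyp1a1. Its log2 difference from control was thus above that of Cyp1a1 in every treatment. Cyp2b1 rose by 5.2 to 9.02 and Cyp3a23/3a1 by 2.28 to 3.8, with adjusted p-values of edgeR of 0.000886 or less for all 3 genes. Cyp3a23/3a1 had few counts, 4 to 16 in controls and 12 to 126 in treated rats. The paper reports that RNA-Seq gave too small a rise for it beside qRT-PCR.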

How the data were processed

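The authors isolated total RNA from 31 rat livers, prepared stranded total RNA libraries, removed adapters (Skewer) and aligned and counted the read pairs with STAR 2.5.2b on Rnor_5.0. The deposited table holds these counts for 26312 genes, without normalization. In the second deposited table the values are a signal, namely counts over the DESeq2 size factor for 19904 genes (largest relative deviation 5.3e-15). It holds all 5 members and was used for this check only. The annotation release and the strand setting of the counting are not given in the sources used here, and coordinates on Rnor_5.0 were not used.

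Groups come from the sample labels. Genes with 2 or more counts in all were tested with edgeR 4.0.16 (R 4.3.3): TMM, 1 mean for each of the 7 groups, quasi-likelihood F-test (older method), Benjamini-Hochberg over 19904 genes, threshold 0.05. SEs were derived from the fold changes and F, and intervals are at 95%. The mixture contrast used the study's weights of 0.5 (IMZ) and 0.47 (CTD), and 0.5 for THI by the same dose ratio. Log2 CPM used a prior count of 2. Correlations were tested by permutation (scipy 1.17.1). The scripts were tested on simulated data. Alternatives were DESeq2 1.42.0 size factors and its Wald test, filterByExpr, no filter, only the groups compared, a replicate block, the newer quasi-likelihood method, counts thinned to 31820322 per library, exact dose ratios, and each rat left out.

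The members and gene lists were chosen with earlier results of these data known. Named are all members, genes of both AHR lists past the threshold in any comparison with control, Cyp2b1, Cyp2b2 and Cyp3a23/3a1, and the 3 genes most like each member. A few further genes are named for their direction or for their share of a summed level. Ugt1a6 and Ugt1a7c, 2 of 12 genes of the AHR target list, were not matched by symbol. Some single genes are left out here. Markers of bile duct cells and of T and NK cells were measured as well, with 0 past the threshold in any treatment (1 or 0 of each list at an unadjusted p under 0.05 by edgeR). No marker of any cell list was at 0 counts over a whole group, and single libraries were not checked for this. Replicates of a group differed by more than counting error, so each rat counts once.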

Additional observations from a re-analysis of the deposited data

Results flagged for a closer look

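Tiparp lay on opposite sides of the control mean in IMZ and in 2 mixtures, although 0 of these 3 treatments differed from control past the threshold in edgeR (adjusted p = 0.815 in IMZ, 0.078 in THI + CTD and 0.321 in IMZ + CTD). All 4 IMZ rats were below the mean of the controls in log2 CPM, and all 4 THI + CTD rats and all 4 IMZ + CTD rats were above it. The mean log2 CPM of IMZ was lower by 0.507 than that of THI + CTD (a difference of -0.507) and lower by 0.42 than that of IMZ + CTD (-0.42). These differences between treatments were not tested. The rats of THI and of CTD were all above the control mean too, and the comparisons of these treatments with IMZ are given above. In groups of 4 to 8 rats, 0 of 18 sets of values of Cyp1a1, Cyp1a2 and Tiparp had a rat set apart from the rest by Dixon's criterion. CTD, with 3 rats, was not checked for this.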

How the results depend on the processing

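Changes of the DESeq2 size factors, the newer quasi-likelihood method, the exact dose ratios, filterByExpr, no filter and thinned counts left every direction and call of Cyp1a1, Cyp1a2 and Tiparp as given. The Wald test of DESeq2 gave 1 member instead of 0 for THI + CTD against control (Tiparp) and 1 instead of 0 for IMZ + CTD against the sum (Cyp1a1). With only the groups compared there was 1 instead of 0 for THI + CTD against control (Tiparp) and 1 instead of 0 for THI + CTD against IMZ + CTD (Cyp1a1). Over all genes this setting called 1007 instead of 873 and 86 instead of 35 in these comparisons. In the list of other AHR targets, the Wald test gave 3 genes in THI, 2 in IMZ and 2 in IMZ + CTD instead of 1, 0 and 1. Over all genes it called 199, 150 and 567 in these treatments, against 108, 50 and 290 in edgeR. In IMZ, filterByExpr gave 1, no filter 1, thinned counts 1 and only the groups compared 2 instead of 0. Over all genes these settings called 55, 52, 49 and 93 in IMZ instead of 50. The cause was not tested.

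The labels name no pairing of rats across groups. Deviations of rats with the same replicate number had a median correlation of 0.023 (78 pairs, -0.272 to 0.419), against -0.0093 for 326 other pairs. With values this wide, the check cannot exclude a block shared by rats of the same number. Replicates 5 to 8 occur only among the controls, so with a replicate block these rats add nothing to the differences from control. Those differences then rest on Control replicates 1 to 4. A change under this fit therefore cannot tell a shared block from the loss of these controls. With a replicate block, 0 members instead of 1 passed in IMZ and 0 instead of 1 in CTD, and Cyp1a1 in IMZ + CTD turned from 0.41 to -0.31. The block left 0 genes of the machinery in CTD instead of 2, and of the other targets 0 instead of 1 in CTD, 0 instead of 2 in THI + IMZ and 0 instead of 1 in IMZ + CTD. Calls over all genes fell as well, to 23 instead of 50 in IMZ and 1571 instead of 2518 in CTD. They fell to 53 instead of 235 in THI + IMZ and 80 instead of 290 in IMZ + CTD.

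When 1 rat was left out, the number of members past the threshold ran from 0 to 1 in THI, in IMZ and in THI + CTD. Of the machinery it ran from 0 to 3 genes in CTD and from 0 to 1 in THI + IMZ. Of the other targets it ran from 0 to 3 in THI and in THI + IMZ, from 0 to 1 in IMZ and in CTD, and from 0 to 2 in THI + CTD and in IMZ + CTD. Over all genes the number ran from 67 to 120 in THI, 28 to 59 in IMZ and 1470 to 2556 in CTD. In the mixtures it ran from 143 to 297 in THI + IMZ, 450 to 969 in THI + CTD and 98 to 366 in IMZ + CTD. Directions turned only in differences that had not passed. For Cyp1a1 these were CTD against THI (-0.0022 to 1.27), CTD against IMZ (-0.83 to 0.62), THI against IMZ (-1.53 to 0.059) and THI + IMZ against THI + CTD (-0.70 to 0.17). For Cyp1a2 they were THI + IMZ against the sum (-0.26 to 0.077), CTD against THI (-0.00997 to 0.24) and THI + IMZ against THI + CTD (-0.0601 to 0.28). For Tiparp they were THI + CTD against the sum (-0.051 to 0.12), CTD against THI (-0.24 to 0.0063), THI + CTD against IMZ + CTD (-0.017 to 0.15), THI + IMZ against THI + CTD (-0.20 to 0.041) and THI + IMZ against IMZ + CTD (-0.11 to 0.13). Depth limits Cyp1b1 and Ahrr, whose counts are mostly at 3 or fewer and which filterByExpr leaves out.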
